A study of Mus musculus with 14 samples.

Results

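The genes encoding the protein subunits of the cytoplasmic ribosome were followed through retinal progenitor cells and whole retina of the mouse. They were chosen by name: every protein-coding gene whose symbol is Rpl or Rps and a number, together with Rplp0, Rplp1, Rplp2 and Rpsa. Mitochondrial ribosomal proteins, the Rps6k kinases and paralogs such as Rpl7l1 were left out. The arrays carried 77 such genes, 46 of the large subunit and 31 of the small subunit, among 15957 genes that could be named. They were read by 101 probes, and 18 of the genes had more than 1 probe.

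RNA from C57BL/6 retinas was compared in 4 groups. At E14 (embryonic day 14) there were 3 samples of Notch1+ cells and 3 of whole retina, and at P0 (the day of birth) there were 4 of each. No transgene was involved. Notch1+ cells were taken from papain-dissociated retinas by a biotinylated antibody to the receptor and magnetic beads, and the retina samples stand for the whole cell population, which itself contains Notch1+ cells. Each RNA was amplified, labeled with biotin and hybridized alone to a MEEBO array, a glass slide of long oligonucleotide probes.

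Each ribosome needs nearly every one of these proteins, and cells that grow and divide devote much of their transcription to them. Their mRNAs are among the most abundant in a cell and begin with a run of pyrimidines, the TOP motif, through which mTOR and the RNA-binding protein Larp1 control their translation. Retinal progenitors divide until they leave the cell cycle as neurons or glia, and Notch1 signaling is known to hold them in the progenitor state.

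The start sites of several members that the results turn on are shown because the pyrimidine run is the feature these genes are known to share. The sequences are from RefSeq on GRCm38.p6, 5′ to 3′ on the coding strand, and each of the 30 bases spans 15 before and 15 after an annotated start. Capitals mark every run of 5 or more C or T.
Rps2, chr17:24720048-24720077, plus strand: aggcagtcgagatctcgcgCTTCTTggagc
Rps28, chr17:33824548-33824577, minus strand: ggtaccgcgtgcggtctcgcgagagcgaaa
Rpl11, chr4:136053379-136053408, minus strand: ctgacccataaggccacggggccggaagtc
Rpl35a, first of 3 starts, chr16:33056438-33056467, plus strand: gcggggcgtgcgtcccacaaggccgcgcgg
Rpl35a, second start, chr16:33056467-33056496, plus strand: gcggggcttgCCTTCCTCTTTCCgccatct
Rps10, chr17:27635230-27635259, minus strand: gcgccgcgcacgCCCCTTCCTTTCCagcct
Rpl34, 1 of 2 starts, chr3:130730323-130730352, minus strand: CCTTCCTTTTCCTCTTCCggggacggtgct
Rpl14, chr9:120571502-120571531, plus strand: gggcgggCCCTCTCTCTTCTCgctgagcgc
Rps15a, chr7:118116133-118116162, minus strand: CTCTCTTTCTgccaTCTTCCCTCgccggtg
Rps6, chr4:86857353-86857382, minus strand: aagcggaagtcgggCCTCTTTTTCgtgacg
A run was present around the annotated start of Rps2, Rps10, Rpl14, Rps15a and Rps6 and not of Rps28 or Rpl11. In Rpl35a it was present at 2 of 3 annotated starts and in Rpl34 at both.

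A start-site window of 300 bases was matched for 57 of the 77 members. Within 15 bases of the start, a run of 5 or more pyrimidines on the coding strand stood in 42 of those 57 genes (73.7%), against 51.5% of the 27025 genes with a window. The letters CTTTC on the coding strand, searched in the same stretch, stood in 16 members (28.1%) against 4.76% of all genes. On the opposite strand CTTTC was found in 5.26% of members and 4.21% of all genes. CGGAAG, the core read by ETS factors such as Gabpa, was found on either strand of the 300 bases in 40 members (70.2%) and in 18.8% of all genes, whereas TATAAA was found in 10.5% and 15.7%. The run, CTTTC and CGGAAG were thus each more frequent among members than among all genes, though most members lacked CTTTC. By their P0 levels, members differed little in these letters: CTTTC stood in 26.7% of the 15 members with a window that were lower in P0 Notch1+ cells than in P0 retina and in 30.8% of the 39 tested members that did not pass, and CGGAAG in 66.7% and 74.4%.

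Between 9332 and 13547 of 34312 mouse probes were above background on an array, that is, brighter than the local background by more than 2 of its SDs, and log2 values of 2 replicates correlated across probes at r = 0.905 to 0.949. The arrays are few, and their number limits the precision of every value. Notch1 itself averaged 25617 intensity units in E14 Notch1+ cells and 9137 in E14 retina (log2 difference 1.49, limma adjusted p = 0.01743), and 33124 and 11710 at P0 (1.39, adjusted p = 0.004224), in the direction of the labels. All E14 arrays were scanned on 1 day, the P0 Notch1+ arrays on another and the P0 retina arrays on the third, so scan day cannot be told apart from stage or, at P0, from the sort. The scanner headers of 10 arrays carry a redip mark, which 3 of the 4 P0 Notch1+ arrays (replicates 1, 3 and 4) and replicate 2 of E14 Notch1+ lack. Markers of other retinal cells moved with the sort: 10 of 11 tested ganglion cell markers were lower in P0 Notch1+ cells (summed intensity 1011 to 1408, against 7374 to 12290 in P0 retina), as were 7 of 12 amacrine and horizontal cell markers (4216 to 5070 against 9076 to 16070) and 7 of 8 photoreceptor markers (3092 to 5605 against 8894 to 18380). At E14, 8 of the 11 ganglion cell markers were also lower (2890 to 3399 against 17350 to 24970). Of the amacrine and horizontal cell markers 2 of 12 were lower and 1 higher at E14, and of the photoreceptor markers 2 of 8 were lower and 0 higher. The ganglion cell gene Sncg was above background on 0 of 4 P0 Notch1+ arrays. In the other direction 3 of 7 endothelial markers were higher in P0 Notch1+ cells (3335 to 6175 against 1890 to 2399) and 0 of 7 at E14 (1361 to 3584 against 1107 to 1290). Likewise 7 of 10 immediate early and heat shock genes, known to respond to dissociation, were higher in P0 Notch1+ cells (42080 to 80730 against 6079 to 7785) and 5 of 10 at E14 (15620 to 17530 against 4619 to 7083), and the part of any of these in the results that follow was not tested.

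Of the 77 members, 73 were above background on at least 3 arrays and entered the tests. Rpl3, Rps19, Rps4x and Rpsa were above background on no array, with group means between 60.8 and 108.6 intensity units, and nothing can be said of their levels from these probes. The rest were bright as a group: the median rank of the members among all mouse probes of an array was between 75 and 204, from the brightest, and 11 members reached the ceiling of the scanner on at least 1 array. Rpl28 did so on 10 arrays, Rps20 on 8 and Rpl41 on 7. Saturated member spots numbered 2 to 3 on E14 Notch1+ arrays, 4 to 6 on E14 retina arrays, 0 on P0 Notch1+ arrays and 6 to 9 on P0 retina arrays. A saturated spot understates its level, so differences of these members are compressed. Members also varied more between replicates than tested probes as a whole, with median replicate SDs of 0.42, 0.36, 0.45 and 0.35 log2 units, against 0.29, 0.24, 0.30 and 0.29 over all tested probes, in the order Notch1+ and retina at E14, then Notch1+ and retina at P0. Most tested probes were dimmer than most members, and the spread was not compared at matched brightness.

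The median member level, on the log2 scale, was 13.39, 13.66 and 13.52 on the E14 Notch1+ arrays and 13.82, 14.09 and 13.79 on the E14 retina arrays. On the P0 Notch1+ arrays it was 12.97, 13.47, 13.29 and 13.10, and on the P0 retina arrays 14.10, 14.27, 14.25 and 14.03. The P0 Notch1+ arrays thus lay below all P0 retina arrays, and the E14 Notch1+ arrays below all E14 retina arrays by a smaller gap. As a share of the raw background-subtracted signal of an array, which no normalization enters, member genes took 8.28%, 11.1%, 9.54% and 7.85% in P0 Notch1+ cells and 11.1%, 12.8%, 14.6% and 12.1% in P0 retina. At E14 the shares were 11.2%, 11.6% and 11.5% in Notch1+ cells and 11.3%, 11.8% and 11.6% in retina. The P0 Notch1+ array with the largest share, replicate 2, is also the one of the 4 with the redip mark, and its share was next to that of the lowest P0 retina array.

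**Figure D1:**
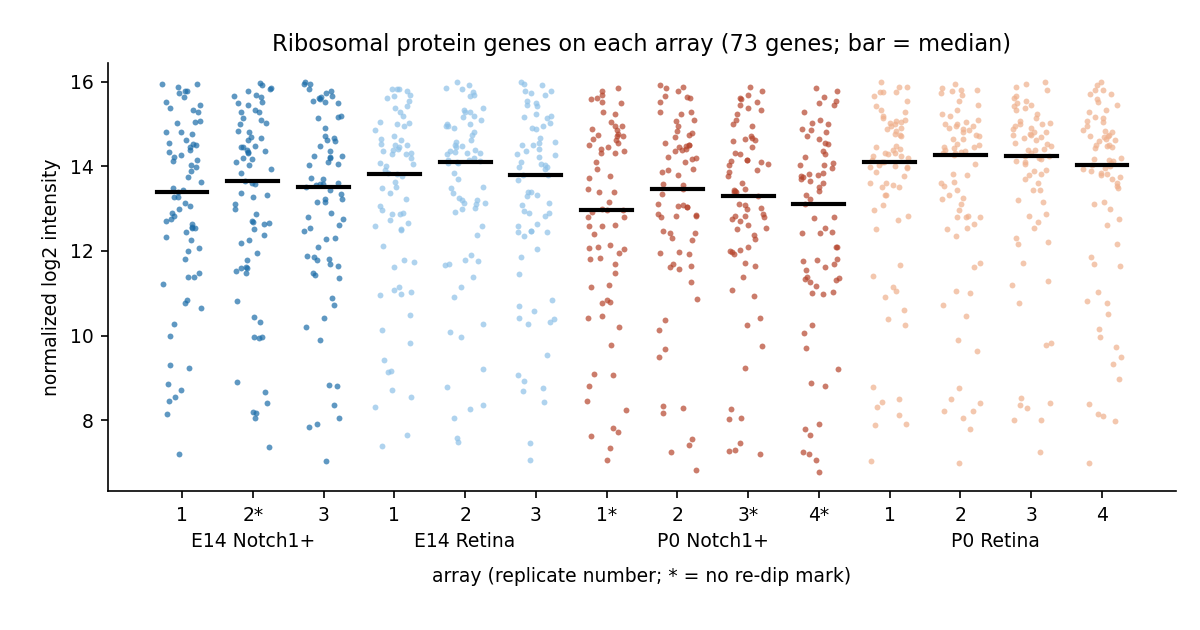
Level of each of the 73 tested member genes on each of the 14 arrays (vertical axis, normalized log2 intensity; horizontal axis, array by group, an asterisk marking arrays without the redip mark; bars, medians). The medians of the 4 P0 Notch1+ arrays, 12.97 to 13.47, lie below those of the 4 P0 retina arrays, 14.03 to 14.27.

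At birth, the ribosomal protein genes that differed were all lower in the sorted cells than in whole retina, on the brightest probe of each gene. In this comparison of P0 Notch1+ cells with P0 whole retina, 19 of 73 tested members (26.0%) were lower and 0 higher at an adjusted p under 0.05 (limma, Benjamini-Hochberg over all 13683 tested probes), where 19.7% of all tested probes were called, 10.7% lower and 8.97% higher. At an unadjusted p under 0.05, limma gave 0 members higher and 28 lower, and the methods' t-test 0 higher and 22 lower. The median member difference was -0.50 log2 units (quartiles -0.96 and -0.09), against 0.01 over all tested probes, and 61 of 73 members lay below 0 where 49.1% of all probes did. Both subunits took part: 11 of 45 large subunit genes (median -0.63) and 8 of 28 small subunit genes (median -0.24) fell. In 18 members every P0 Notch1+ array lay below every P0 retina array and in 0 above, where 23.6% of all tested probes had no overlap, 12.3% below and 11.2% above. These samples hold mixtures of cells, and fewer cells of a type with high levels and less RNA per cell cannot be told apart.

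Rps2, a small subunit protein at the mRNA entry site, had the smallest p. Its probe read 2262, 3146, 3184 and 2687 intensity units on the 4 P0 Notch1+ arrays and 12380, 22297, 14146 and 14510 on the 4 P0 retina arrays (2820 ± 435 and 15833 ± 4409, SD, n = 4). The lowest retina array was thus far above the highest Notch1+ array, and Rps2 fell by 2.47 log2 units (SE 0.21, limma adjusted p = 5.824e-06). Rps28, which lies near the mRNA exit, had the largest fitted difference, with 1408, 4866, 3891 and 1074 units in P0 Notch1+ cells and 32493, 7176, 18420 and 13639 in P0 retina. The groups did not overlap, but its replicates were far apart, and the difference of -2.75 had an SE of 0.68 (adjusted p = 0.01277).

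Among large subunit genes Rpl11, whose protein also binds and restrains Mdm2, read 1824, 3954, 4393 and 2085 units in P0 Notch1+ cells and 16206, 21286, 17787 and 16678 in P0 retina, a difference of -2.65 log2 units (SE 0.53, limma adjusted p = 0.003578). Rpl35a, mutated in human Diamond-Blackfan anemia, read 2856, 7177, 4095 and 2321 units against 18005, 19756, 21841 and 15807 (-2.33, SE 0.56, adjusted p = 0.01037). Rpl10, an X-linked gene whose protein joins the large subunit late in its assembly, read 3312, 5464, 5356 and 3014 against 15806, 12575, 15431 and 15668 (-1.84, SE 0.30, adjusted p = 0.0008409). All 3 showed a clear gap between groups, the nearest arrays being the redipped P0 Notch1+ array or replicate 3 and the lowest retina array. Rpl34, another large subunit protein, read 7725, 7462, 7199 and 5593 units against 19333, 21071, 19334 and 16412 (-1.45, SE 0.30, adjusted p = 0.004127). Rpl23a, which sits at the exit of the peptide tunnel, read 9111, 23024, 24711 and 11648 against 27506, 32802, 46006 and 49418 (-1.27, SE 0.31, adjusted p = 0.01219). Its 2 higher Notch1+ arrays came close to the lowest retina array without reaching it.

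Further small subunit genes moved alike. Rps10, a human Diamond-Blackfan anemia gene, read 15573, 7293, 16679 and 12465 units in P0 Notch1+ cells against 39995, 37307, 38609 and 23326 in P0 retina (-1.46, SE 0.36, limma adjusted p = 0.0123). Rps21 read 13509, 10422, 7527 and 3146 against 21286, 20342, 19519 and 17363 (-1.37, SE 0.44, adjusted p = 0.0436), and Rps7, another gene of that anemia, 4326, 7323, 10727 and 9634 against 14887, 22478, 18821 and 13396 (-1.17, SE 0.37, adjusted p = 0.04117). The groups did not overlap in any of these genes, though Rps21 and Rps7 spread widely within P0 Notch1+ cells. Among the other genes that fell were Rplp0, Rps24 and Rpl14, described with the stage comparison, and Rpl7, Rps3a1, Rpl13a and Rpl7a, which lie outside the rule for named genes and were named after their values were seen. These 7 fell by 0.76 to 1.15 log2 units. When each of the 14 arrays was left out in turn, 11 of the 19 stayed called every time, and the calls of Rpl13a, Rpl7 and Rpl7a were lost in 12 fits, Rps7 in 11, Rps21 in 9 and Rps3a1 in 5. No member passed the test in the other direction on its brightest probe, and the highest, Rpl8, was at 0.77 (SE 0.51, adjusted p = 0.3162). Under other processing some did pass upward at P0. Cyclic loess gave 5 higher and 16 lower, and the mean of all tested probes of a gene gave 1 higher and 21 lower.

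**Figure D2:**
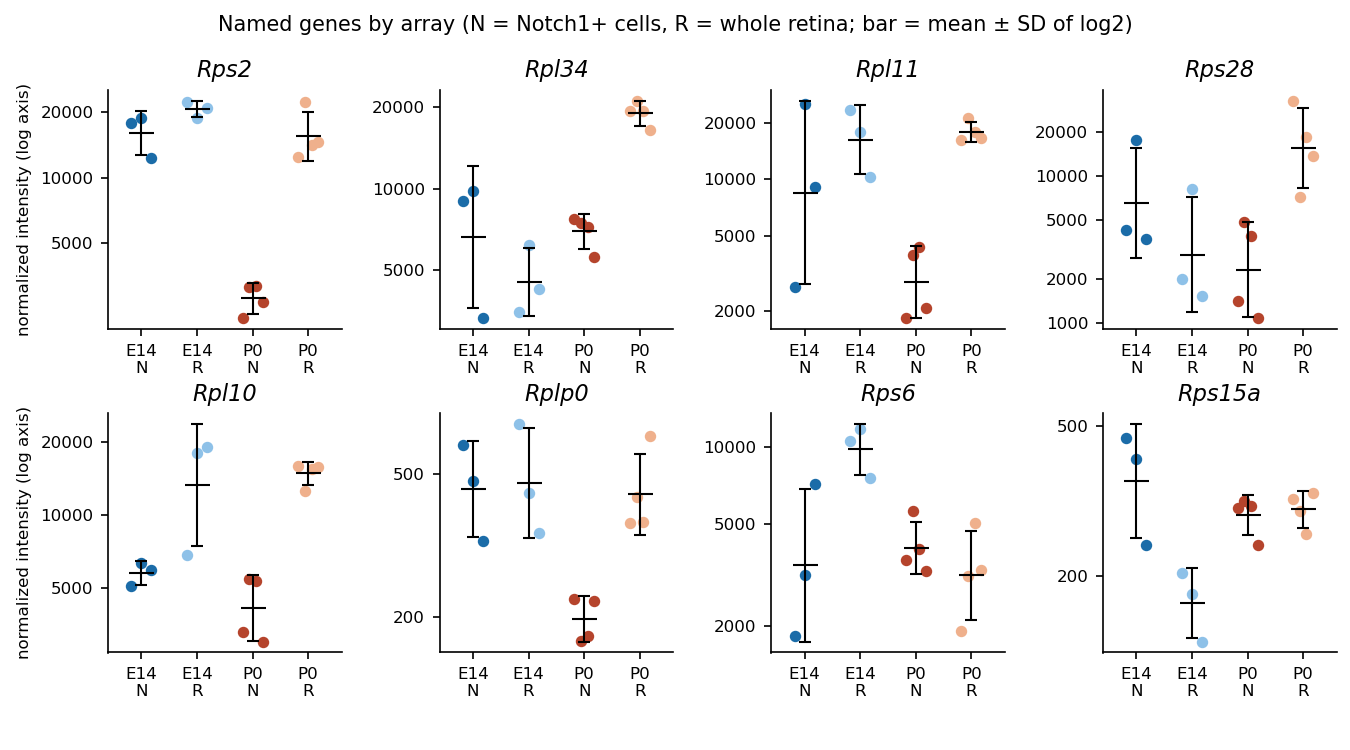
Normalized intensity (log axis, intensity units) of 8 named member genes in each group, with 1 point per array and bars for the mean and SD of the log2 values. In Rps2 the 4 P0 Notch1+ arrays, 2262 to 3184, lie below all other arrays.

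Other probes as bright as the members did not show this decrease. Among 276 other tested probes with mean levels inside the middle 50% of member levels (4548 to 24151 intensity units), the median P0 difference was 0.15, 37 probes were higher and 21 lower, and 41.7% lay below 0. The 37 members in that range had a median of -0.85, with 14 lower and 34 below 0. By level, the median member difference was -0.23 in the dimmest of 4 equal bins, -1.06 and -0.55 in the middle bins and -0.20 in the brightest, where other probes of the same levels had 0.03, 0.17, 0.04 and 0.21. Saturation lay with the brightest: the 11 members at the ceiling on any array had a median of -0.07 with 1 lower, and the 62 never at the ceiling -0.64 with 18 lower. Rpl41, the shortest of the proteins, was at 0.02 (95% interval -0.27 to 0.31), Rps14 at 0.13 (-0.22 to 0.49) and Rps27a, made as a fusion to ubiquitin, at -0.15 (-0.68 to 0.38), all with saturated spots in P0 retina.

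**Figure D3:**
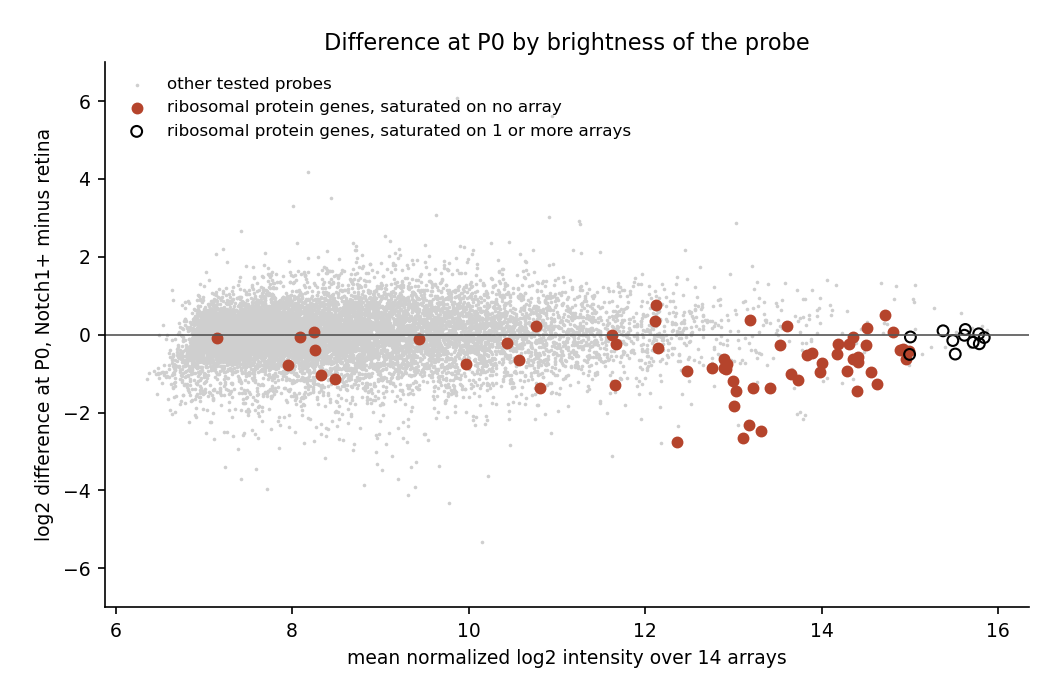
Log2 difference of P0 Notch1+ cells minus P0 retina (vertical axis) against mean log2 level over the 14 arrays (horizontal axis) for member genes (open circles where saturated on any array) and other tested probes (gray). In the middle of the member range members center near -0.85 and other probes near 0.15.

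Genes with several probes allowed a second reading. Of 12 members with more than 1 tested probe, all probes of a gene pointed the same way at P0 in 9. All tested probes were called in 0 of the 12. No gene had more than 1 called probe at P0, so calls could neither repeat nor oppose each other. The brightest probe of Rplp1, a stalk protein, was at -0.63 (SE 0.40, limma adjusted p = 0.297), with 30171, 11995, 15309 and 16840 units in P0 Notch1+ cells and 26868, 27163, 24986 and 29153 in P0 retina. A second Rplp1 probe read 1394, 1558, 2506 and 929 against 11456, 15431, 19756 and 14441, a difference of -3.32 (adjusted p = 3.4e-05). Probes of this gene therefore differed in size of change, and pseudogenes and near-identical copies, which ribosomal protein genes have in number, could contribute signal to either. Rps13, a small subunit protein named after its values were seen, was at 0.51 on its brightest probe (SE 0.25, adjusted p = 0.1822), and a dim second probe, above background on 3 of 4 P0 Notch1+ and 0 of 4 P0 retina arrays, was called higher in P0 Notch1+ cells (adjusted p = 0.003581). A second probe of the stalk gene Rplp0, whose brightest probe fell, was at -0.32 (SE 0.32, adjusted p = 0.5401). In some genes the sign depended on the probe, and those given here were named after their values were seen. Rps9 was at -0.96 on its brightest probe and at 0.71 and 0.43 on its others, none of them called. Rpl27a was at 0.37 on its brightest probe and at -0.40 and -1.24 on its others, the last called lower (limma adjusted p = 0.01186). For 1 gene, Rpl13a, chosen after its values were seen, 22 control spots carried its transcript identifier. All 21 spots above background on 3 or more arrays were lower in P0 Notch1+ cells (median -0.77, range -1.55 to -0.04), in 7 of them with no overlap. These spots lie on the same arrays as the probes. They share their RNA, scan days and redip marks, and are not further replicates. At E14, 10 of the same 21 spots were lower (median 0.00).

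The number of members called lower at P0 varied with the scaling and with the treatment of the redip mark, whose meaning the sources do not give. Quantile normalization, used here, gave 19 members lower, and scaling each array to 1 common median gave 53 lower with the member median at -1.46 and the median of all probes at -0.37; Rps2 fell in all 29 alternatives tried, by 2.29 to 3.65 log2 units. With the redip mark as a covariate 6 members were lower (Rps2, Rpl10, Rpl11, Rpl34, Rplp0 and Rps10) while the member median was -0.43 with 55 of 73 below 0, and with the 3 unmarked P0 Notch1+ arrays left out, an alternative chosen after the data were seen, 1 was (Rps2) and the member median was -0.21.

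At E14 the same comparison gave a smaller difference. Of 73 tested members 1 was higher and 0 lower in the sorted cells, where 5.91% of all tested probes were called, 2.67% higher and 3.24% lower. The member median was -0.04 (quartiles -0.36 and 0.18), and 38 of 73 lay below 0. At an unadjusted p under 0.05, limma gave 1 higher and 5 lower, and the methods' t-test 1 higher and 2 lower. In 7 members all Notch1+ arrays were below all retina arrays and in 1 above, where 25.6% of all probes had no overlap, 13.3% below and 12.4% above. In the middle of the member range the medians were -0.11 for members and 0.03 for other probes.

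The member that was higher was Rps15a, a small subunit protein read by a dim probe. It read 465.07, 407.8 and 240.83 intensity units in E14 Notch1+ cells and 202.82, 178.7 and 133.65 in E14 retina, where it was above background on 2 of 3 arrays. The difference was 1.08 log2 units (SE 0.24, limma adjusted p = 0.01797), and the adjusted p was 0.08002 when Notch1+ replicate 1 of E14 was left out, 0.06307 when replicate 2 was and 0.0846 when E14 retina replicate 3 was. At P0 the same probe differed by -0.05 (95% interval -0.50 to 0.40). Close to the threshold on the lower side were Rps6, the substrate of S6 kinase whose phosphorylation is used to read mTOR activity, with 1830, 3168 and 7149 units against 10577, 11716 and 7572 (-1.50, SE 0.43, adjusted p = 0.06133), Rpl10 with 5114, 6365 and 5925 against 6836, 18006 and 19029 (-1.20, SE 0.35, adjusted p = 0.06068), and Rpl39, an X-linked gene of the exit tunnel, at -1.32 (SE 0.39, adjusted p = 0.06579). None of these 3 passed the test.

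Within Notch1+ cells few members were called between the stages, and those called were higher at E14 than at P0, on the brightest probe of each gene. Of the 73, 4 (5.48%) were higher and 0 lower at E14, where 11.1% of all tested probes were called, 5.17% higher and 5.92% lower. The share of members called higher was thus close to that of all probes, and the share called lower was below it. The median member difference, E14 minus P0, was 0.23 (all probes 0.01), 53 of 73 lay above 0, and at an unadjusted p under 0.05 limma gave 15 higher and 1 lower. Without overlap, 9 members were higher and 1 lower, where 24.1% of all probes had no overlap, 11.9% higher and 12.2% lower.

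Rps2 again led, with 17787, 18820 and 12296 units in E14 Notch1+ cells against the 2262 to 3184 at P0 (2.52, SE 0.22, limma adjusted p = 1.946e-05). The other 3 were genes whose probes read dimly. Rplp0, the stalk protein often used as a reference gene, read 601.25, 479.24 and 326.11 at E14 in the sorted cells, 225.38, 171.6, 177.54 and 222.44 at P0, and 364.68 to 638.13 in P0 retina. It differed by 1.20 between stages (SE 0.28, adjusted p = 0.0158; 0.06872 and 0.05539 without E14 Notch1+ replicate 1 or 2) and by -1.15 from P0 retina (SE 0.26, adjusted p = 0.006929). Its second probe was called between stages (1.16, SE 0.35, adjusted p = 0.04713) and not from P0 retina. Rps24, another human Diamond-Blackfan anemia gene, read 630.52, 288.52 and 453.52 at E14 and 196.93, 187.74, 155.38 and 148.27 at P0, where 2 of 4 arrays were above background (1.35, SE 0.29, adjusted p = 0.01028; from P0 retina -1.03, SE 0.26, adjusted p = 0.01505). Rpl14, a large subunit protein, read 418.34, 342.38 and 230.15 at E14 and 162.63, 152.32, 156.97 and 133.44 at P0, with 1 of 4 arrays above background (1.09, SE 0.20, adjusted p = 0.004643; from P0 retina -0.78, SE 0.19, adjusted p = 0.009681). All 4 genes were thus also among the 19 lower in P0 Notch1+ cells than in P0 retina, and both comparisons use the same P0 Notch1+ arrays. With the 3 unmarked P0 Notch1+ arrays left out, the member median was 0.03 and Rps2 alone remained called.

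In whole retina few members differed with stage, and in both directions. Of 73, 1 was higher and 4 lower at E14 than at P0, where 14.3% of all tested probes were called, 6.61% higher and 7.67% lower. The median was -0.11, and limma gave 3 higher and 10 lower at an unadjusted p under 0.05. Without overlap 7 members were higher and 7 lower, where 29.2% of all probes had no overlap.

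Rps6 was the gene higher in E14 retina, with 10577, 11716 and 7572 units against 1912, 3132, 5057 and 3319 at P0 (1.63, SE 0.41, limma adjusted p = 0.01734). Rpl34 was lower, with 3507, 6197 and 4238 units at E14 and 16412 to 21071 at P0 (-2.07, SE 0.32, adjusted p = 0.0009688) and stayed called in all 14 fits that left out an array. Rps28 differed by -2.41 (SE 0.74, adjusted p = 0.04395), with 2000, 8137 and 1533 units at E14, so that its groups overlapped. Rpl38, needed in the mouse for translation of a subset of Hox mRNAs, read 14049, 9430 and 16911 units at E14 and 20342, 28787, 25922 and 36611 at P0 (-1.06, SE 0.31, adjusted p = 0.03746), and Rps15a differed by -0.83 (SE 0.23, adjusted p = 0.02677). The calls of Rps6, Rps28, Rpl38 and Rps15a were lost without 1 array in 2, 7, 5 and 4 of 14 cases. The count of calls was 2 without E14 retina replicate 1 or P0 retina replicate 4 and 3 without E14 retina replicate 2, E14 retina replicate 3, P0 retina replicate 1 or P0 retina replicate 3. The dimmer probe of Rplp1, outside these counts, was also lower at E14 (-1.56, SE 0.38, limma adjusted p = 0.01449), and its brightest probe was not called (-0.29, SE 0.43, adjusted p = 0.7049).

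**Figure D4:**
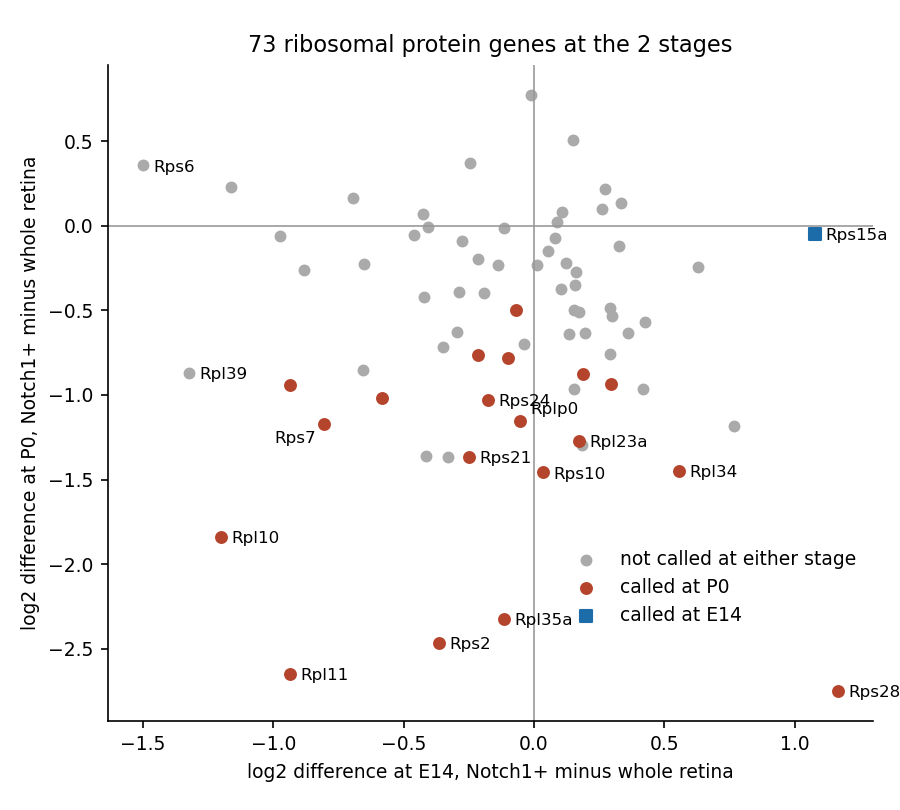
Log2 difference of Notch1+ cells minus retina at E14 (horizontal axis) against that at P0 (vertical axis) for the 73 tested member genes, with red points called at P0, the blue square called at E14 and gray points called at neither. Most points lie below 0 on the vertical axis, 61 of 73, and on both sides of 0 on the horizontal axis.

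Whether the Notch1+ difference itself changed with stage was tested by an interaction term, the E14 difference minus the P0 difference. Both E14 groups were scanned on the same day and the P0 groups on different days, so scan day cannot be told apart from this term. On the brightest probe of each gene, 2 of 73 members passed in the positive direction and 0 in the negative, where 2.47% of all tested probes passed, 1.52% positive and 0.95% negative. The median was 0.44 against 0.00 over all probes, 56 of 73 lay above 0, and limma gave 13 positive and 1 negative at an unadjusted p under 0.05. Rps2 was at -0.36 between Notch1+ cells and retina at E14 (95% interval -0.87 to 0.15) and at -2.47 at P0, a stage difference of 2.10 (SE 0.31, limma adjusted p = 0.005904). Rpl34 was at 0.56 and -1.45, a difference of 2.01 (SE 0.45, adjusted p = 0.03735). Its call was lost in 11 of 14 fits that left out an array (adjusted p up to 0.09463), whereas that of Rps2 was kept in all 14 (up to 0.02127). Rps28 had the largest term, 3.92 (SE 1.04), with an adjusted p of 0.06585, and Rps6 the lowest, -1.86 (SE 0.57, adjusted p = 0.105). The dimmer probe of Rplp1, outside these counts, also passed (2.29, SE 0.53, limma adjusted p = 0.04136), and its brightest probe did not (0.33, SE 0.61, adjusted p = 0.8272). With only redipped arrays at P0 neither Rps2 (1.93, adjusted p = 0.1287) nor Rpl34 (1.90, adjusted p = 0.3151) passed.

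Other members with known roles of their own passed no test on their brightest probes in any of the 5 comparisons. Rpl5, which shares the Mdm2-binding particle with Rpl11, read 20893, 39996, 32802 and 14241 units in P0 Notch1+ cells and 35083, 32494, 44742 and 44743 in P0 retina (-0.64, 95% interval -1.43 to 0.16). Its groups overlapped, unlike those of Rpl11. Rpl36a, an X-linked gene, was at -0.26 (-1.31 to 0.78) and Rpl39 at -0.87 (SE 0.34, limma adjusted p = 0.08907). Rpl4, a protein of the tunnel wall, was at -0.12 (-0.83 to 0.59) at P0 and at 1.12 (SE 0.36, adjusted p = 0.0594) between E14 and P0 Notch1+ cells, where its second probe passed (1.35, SE 0.40, adjusted p = 0.04533). Rplp2, the partner of Rplp1 in the stalk, was not above background on any P0 Notch1+ array and above it on 2 of 4 P0 retina arrays.

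The genes that load, move and build ribosomes did not follow the subunit genes as a block. Over all tested probes 10.7% were lower and 8.97% higher at P0. The 8 tested genes of the elongation list had a median P0 difference of -0.52, close to that of the members, with 2 lower. These were Eef1b2, a subunit of the exchange factor for eEF1A (-1.13, SE 0.30, limma adjusted p = 0.01705), and Eef1e1 (-1.34, SE 0.38, adjusted p = 0.0236). Eef1e1 is a protein of the multisynthetase complex rather than an elongation factor. The 30 initiation factor genes had a median of 0.14, with 3 higher and 2 lower, and the paired helicases went apart: Eif4a1 rose by 1.29 (SE 0.43, adjusted p = 0.04808) and Eif4a2 fell by 1.40 (SE 0.36, adjusted p = 0.01533). Of 10 ribosome-associated genes 2 rose, Srp14 of the signal recognition particle by 1.25 and the scaffold Rack1, which sits on the small subunit, by 0.47, and the nucleolar chaperone Npm1 fell by 1.60 (SE 0.36, adjusted p = 0.00748). The 43 genes of ribosome biogenesis had a median of 0.28, with 4 higher and 3 lower. The nucleolar Mybbp1a averaged 7183 ± 375 units in P0 Notch1+ cells and 2437 ± 138 in P0 retina (SD, n = 4), a rise of 1.56 log2 units (SE 0.14, adjusted p = 1.161e-05), and the snoRNP protein Nop56 fell by 1.29 (SE 0.42, adjusted p = 0.04506). Eif4ebp1, the translational repressor that mTOR inactivates, was lower in Notch1+ cells at both stages, at -1.99 at E14 (SE 0.48, adjusted p = 0.02693) and -1.45 at P0 (SE 0.42, adjusted p = 0.02674), the only called gene of 17 growth regulators at E14 and 1 of 2 at P0. Among 4 tested paralogs of ribosomal proteins, Rpl22l1 fell at P0 by 1.14 (SE 0.29, adjusted p = 0.01505) and Rpl7l1 rose at E14 by 0.74 (SE 0.18, adjusted p = 0.02444).

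**Figure D5:**
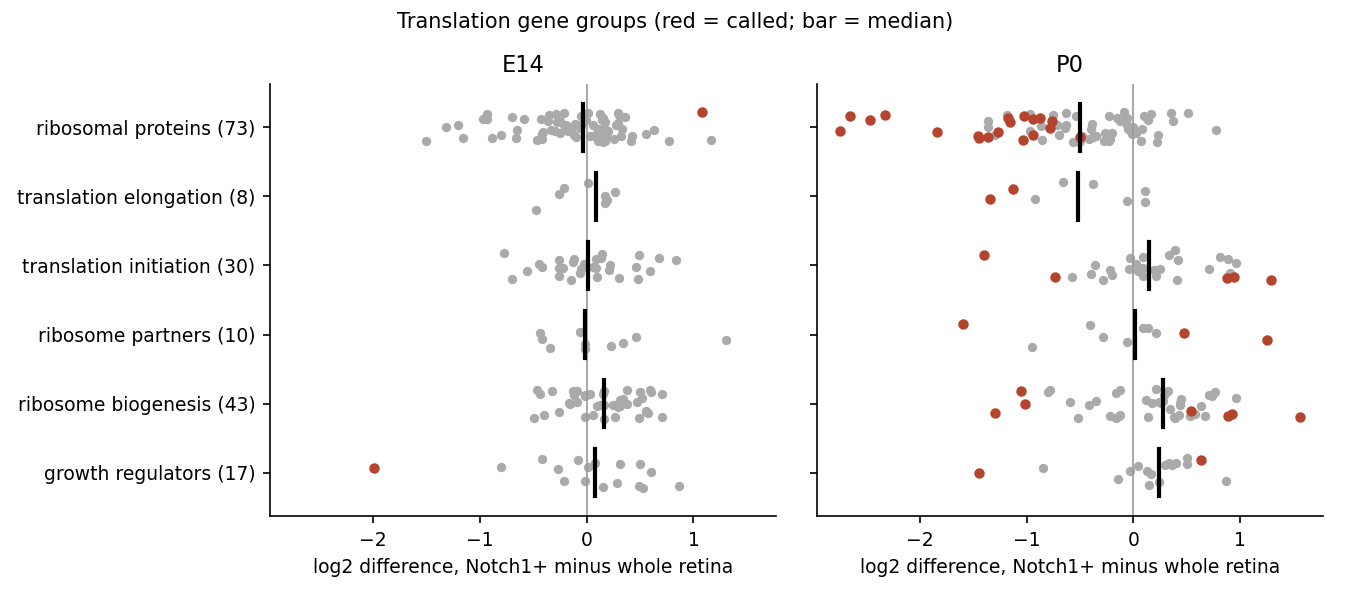
Log2 difference of Notch1+ cells minus retina (horizontal axis) at E14 and at P0 for each tested gene of the subunit, elongation, initiation, ribosome-associated, biogenesis and growth regulator lists (rows), with called genes in red and medians as lines. At P0 the medians of the subunit genes and of the elongation list, which holds Eef1e1, are the lowest, -0.50 and -0.52.

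At E14 none of the 8 elongation, 30 initiation, 10 ribosome-associated or 43 biogenesis genes passed, with medians between -0.02 and 0.16. Between E14 and P0 Notch1+ cells the biogenesis genes gave 6 higher and 1 lower of 43 (median 0.27), the lower one being Mybbp1a (-0.79, limma adjusted p = 0.006), and among the higher were Nop56 (1.92, SE 0.45, adjusted p = 0.0173). Npm1 was also higher, by 1.92 (SE 0.39, adjusted p = 0.0083), and Eef1e1 by 1.50 (SE 0.41, adjusted p = 0.03239). In whole retina 6 of 43 biogenesis genes were higher at E14 and 0 lower (median 0.37). Serbp1, a ribosome-binding protein, was higher in E14 retina by 1.04 (SE 0.26, adjusted p = 0.01667), as was Eif4a1 (1.66, SE 0.46, adjusted p = 0.02875). The interaction passed in this set for Mybbp1a (-1.26, SE 0.22, adjusted p = 0.01031) and for Eif2b4, a subunit of the initiation factor exchange complex (-1.49).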

How the data were processed

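Per the file headers, the authors' scanner files hold raw intensity (median foreground, median and SD of local background, 635 nm, GenePix) for 38880 spots an array, not normalized between arrays. A second table deposited by the authors gives log2 values of the same arrays, background-subtracted intensities multiplied by 1 factor per array (0.613 to 1.41, its basis not stated) with values under 1 set to 1. It was used as an alternative only. Comparison columns of the study were not used, and 0 per-sample columns were left out.

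Intensities were background-corrected (normexp, offset 50) and quantile normalized on all 34312 mouse probes (limma 3.58.1, R 4.3.3). Spots with a bad flag were left out and saturated spots kept. A probe above background on at least 3 arrays was tested (13683 probes) with lmFit and eBayes over 4 group means, Benjamini-Hochberg adjusted over all tested probes. Of the mouse probes, 22933 were named by accession and 444 by gene ID. A gene was represented by its brightest probe on average. The fit was tested on simulated data. The samples are called independent in the methods, and p-values measure the spread between them.

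Member genes, gene lists and the named genes were chosen with earlier results of these data known. Named were the called members, up to 10 per direction and comparison with the largest change, members with roles known apart from these data, genes whose called probes disagree, and up to 4 called genes a list. Some items are not reported here. Alternatives changed the background correction, the scaling (common median, 75th percentile, cyclic loess, the value table), the filter, the probe rule, saturated spots, the groups fitted, the redip mark, the replicate block, the test and each replicate in turn.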

Additional observations from a re-analysis of the deposited data

Results flagged for a closer look

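Among 62 groups of 4 arrays, 4 held an array set apart from the other 3, where chance gives about 1 in 20. The groups checked were those of the members described, of the median member level and of the member share of raw signal. The gap to the nearest array was taken on the log2 scale, as a share of the whole range of the group. It was 0.902 for Rpl39 in P0 retina (lowest 5968 units on replicate 2, next 13878), 0.895 for Rpl10 in P0 retina (lowest 12575 on replicate 2, next 15431), 0.871 for Rps10 in P0 retina (lowest 23326 on replicate 4, next 37307) and 0.835 for Rps15a in P0 Notch1+ cells (lowest 241.86 on replicate 4, next 301.92). Of these 4, 2 came from P0 retina replicate 2. Without that array Rpl10 kept its call at P0, as it did without any other.

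By the interaction term in limma, the difference between Notch1+ cells and retina at E14 minus that at P0 was 2.10 log2 units for Rps2 and 2.01 for Rpl34. These were 2.74% of the 73 tested members, where 2.47% of all tested probes passed. The call of Rpl34 was lost in 11 of 14 fits that left out an array and that of Rps2 in 0. Scan day cannot be told apart from this term. Rps2 was at -0.36 between Notch1+ cells and retina at E14 and at -2.47 at P0, and Rpl34 at 0.56 and -1.45.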

How the results depend on the processing

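The called members numbered 1, 19, 4, 5 and 2 in E14 Notch1+ against retina, P0 Notch1+ against retina, E14 against P0 Notch1+ cells, E14 against P0 retina, and the stage term. No called member reversed under any alternative run for it (703 values kept their side of the threshold, 190 lost it), and genes of the other lists were not run. Scaling raised the P0 count most. Among fits with more than 1 P0 Notch1+ array, the redip covariate lowered it most. With only redipped arrays at P0 the P0 member median was -0.21, against -0.50 in the main fit. With a common median the counts were 3, 53, 24, 9 and 10, and the 3 at E14 were lower, not higher. With the 75th percentile they were 44, 14, 9 and 6 from P0 on. The value table gave 41 at P0, 17 between Notch1+ stages and 6 for stage. All tested probes split 1227 higher to 1467 lower at P0, but 320 to 3778 with a common median, 1070 to 2046 with the 75th percentile and 780 to 2273 in the value table. Relative to all probes the P0 member median was -1.10 with a common median and -0.97 in the value table. Cyclic loess gave 8 in retina and, at P0, 5 higher with 16 lower (median -0.41). The redip covariate gave 6 at P0. With only redipped arrays at P0, chosen after seeing the data, the counts were 1 at P0, 1 between Notch1+ stages and 0 for stage by limma, which then rests on a single P0 Notch1+ array assumed to vary like the other groups. The methods' t-test gave 3, 7 and 13 at an unadjusted p under 0.05 for E14, Notch1+ stages and retina, and after Benjamini-Hochberg 11, 1 and 2 for P0, Notch1+ stages and retina. With no filter the stage count was 1. The causes of these shifts were not tested. Leaving out each array gave 0 to 3, 13 to 18, 3 to 7, 2 to 7 and 1 to 5 called members, and P0 medians of -0.56 to -0.45. The E14 count was 0 without E14 Notch1+ replicate 1, E14 Notch1+ replicate 2 or E14 retina replicate 3, and the Notch1+ stage count was 7 without E14 Notch1+ replicate 3 or P0 Notch1+ replicate 2. With the replicate block the counts were 1, 16 (14 of the 19 kept), 5, 5 and 2. Same-numbered samples did not pair (r from -0.17 to 0.12, 2 of 19 pairs over 0.1). Signal over background limits Rplp0, Rps24, Rpl14, Rps15a and Rplp2, and saturation limits the brightest members.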
